A study of Gallus gallus with 12 samples.

Results

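The solute carrier genes described here are the 181 genes whose array annotation gives a single symbol of the form SLC, a family number, A and a member number, and whose signal lay above the median of its array on at least 3 of 12 arrays. SLC4A1, the band 3 anion exchanger of red cells, was left out by the same rule. The chicken array carried 568 probe sets for 248 such genes, so 67 genes are not described, and 48 of these exceeded the median on 0 arrays. Each gene is represented by its brightest kept probe set over the 12 arrays. The 181 genes came from 44 families and stood among 10158 genes, or 21354 probe sets, that passed the same filter. SLC12A7, SLC30A2 and SLC6A19 lay just inside the filter, above the median on exactly 3 arrays, and 10 genes, among them SLC1A1, SLC22A4 and SLC5A7, lay just outside it with 2. In all, 130 genes exceeded the median on all 12 arrays.

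Solute carriers are membrane proteins that move small molecules and ions across the plasma membrane or the membranes of organelles, by exchange, by cotransport with sodium, protons or chloride, or down a gradient. Families are numbered by sequence likeness and broadly share substrates, such as amino acids, sugars, nucleosides, metals or mitochondrial metabolites. In embryonic tissue they feed growth, load transmitter vesicles of early neurons and supply iron and glycine for haem in red cells.

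RNA was measured in maxillary prominences, the paired upper-jaw buds of the chicken embryo, taken as mesenchyme together with epithelium. Every embryo received a pair of beads on the side of the head at Hamburger Hamilton stage 15, and the tissue was collected 16 h later, at stage 18. Noggin, a secreted protein that binds and blocks bone morphogenetic proteins, was given at 1 mg/ml on a bead of 200 µm and Tris buffer was its control; all-trans-retinoic acid (RA), the ligand of nuclear retinoid receptors, was given at 1 mg/ml on a bead of 100 µm and dimethylsulfoxide (DMSO) was its control. The 4 groups were Tris+DMSO, which carried both control beads, Noggin+DMSO, Tris+RA and Noggin+RA, with 3 arrays each, and each array was 1 pool of 12 to 15 maxillary pieces. Since pooled tissue was measured, fewer cells of a type and less RNA per cell cannot be told apart.

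Values are linear intensities in arbitrary units, scaled by the authors to a common trimmed mean. Levels of different genes are not compared, because each has its own probes. The background level of an array, the 95th percentile of its 689 virus probe sets, ranged from 31.1 to 48.97, and 136 of the 181 genes exceeded it on all 12 arrays. The arrays correlated at 0.971 to 0.980 within groups and 0.945 to 0.977 between groups. Noggin arrays differed from Tris arrays as a whole: the ratio of the 5' to the 3' probe sets of GAPDH, a measure of RNA completeness, was 0.695 ± 0.0410 (SD, n = 6) against 0.815 ± 0.0266 (n = 6) without overlap, and the median intensity was 42.8 ± 2.47 against 37.1 ± 2.13. Of the marker lists, 8 of 10 mesenchyme genes and 9 of 13 surface epithelium genes were kept. Several lists differed between Tris+DMSO and Noggin+DMSO: the mean log2 deviation of the mesenchyme genes was 0.345 and -0.228, with 3 genes called lower, the summed intensity of 7 white blood cell genes was 897 to 1142 and 1325 to 1730, with 1 called higher, and that of the retina and pigment epithelium genes was 565 to 663 and 898.5 to 1051, with 1 of 3 kept genes called higher. Red blood cell, neuron and skeletal muscle lists are given beside the genes they touch, and the part of these lists in the Noggin comparisons was not tested. The labels and files name no batch.

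The first question was what Noggin changed in these genes. In Noggin+DMSO against Tris+DMSO, 13 of the 181 genes changed, 12 up and 1 down, at an adjusted p below 0.05 from limma over all 21354 probe sets. This was 7.18% of the genes, against 4.95% of all probe sets (2.97% up and 1.99% down). The largest called rise was that of SLC6A12, a betaine and GABA transporter, and the fall was that of SLC6A15, a neutral amino acid transporter of neurons. Averaged over both states of the RA bead, 6 Noggin arrays against 6 Tris arrays, 27 genes changed, 22 up and 5 down, or 14.9% against 11.2% of all probe sets (6.77% up and 4.47% down). With each of the 10158 genes also taken by its brightest kept probe set, the shares of all genes called were 5.69% in Noggin+DMSO and 12.29% in the average. The comparisons share arrays, and 9 solute carrier genes were called in both, giving 31 called genes in all. Fold and log2 changes are those of intensity + 16, which understates the change of dim genes. On that scale SLC6A12 was the sole called gene with a change of at least 2-fold, while the ratio of mean intensities in Noggin+DMSO and Tris+DMSO also exceeded 2 for SLC18A2 (2.27) and SLC12A9 (2.14), and called changes in the average ran from 0.23 to 0.76 in log2 size. The SLC18A2 ratio is uncertain, since only 2 of its 3 Tris+DMSO arrays exceeded background.

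Beyond the called genes, 138 of the 181 were higher in Noggin+DMSO than in Tris+DMSO, which is 76.2% against 58.3% of all probe sets. The median log2 change was 0.205 over the solute carrier genes and 0.0633 over all probe sets. The medians in the average effect of Noggin were 0.161 and 0.0568. All 3 Noggin+DMSO values lay above all 3 control values for 56 of the 181 genes and below for 16. Over all 21354 probe sets the counts were 3706 above, which is 17.4%, and 2653 below, which is 12.4%. All 6 Noggin arrays lay above all 6 Tris arrays for 13 genes and below for 2, against 2.78% and 2.31%. These values depend on how the arrays are put on one scale. Centring each array on its median moved the median of all probe sets in Noggin+DMSO to -0.108 and that of the solute carrier genes to 0.0338. Centring moves every probe set of an array by the same log2 amount, so the distance between the medians, 0.142, could not change. With quantile normalization the medians were -0.00611 and 0.124, a distance of 0.130. With centring, the 11 calls split into 5 up and 6 down. The same centring gave, on average over both RA states, 8 up and 15 down, and quantile normalization gave 13 up and 5 down. Over all probe sets, centring gave 343 up and 1496 down in Noggin+DMSO, and 564 up and 2967 down in the average. In the average, quantile normalization gave 823 up and 1121 down over all probe sets. Directions of single genes below are on the deposited scale, and none of the 31 called genes changed sign under any alternative tried. Some shrank to almost no change, however: the average log2 change reached 0.00187 for SLC6A12 and -0.022 for SLC36A1 under an alternative.

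The number of calls also rested on single arrays. In Noggin+DMSO against Tris+DMSO it was 6, 4 and 3 without Noggin+DMSO replicates 1, 2 and 3, 6 and 5 without Tris+DMSO replicates 1 and 2, and 8 without Tris+RA replicate 3. The shares of all probe sets called fell too, in that order to 2.5%, 2.29%, 1.21%, 2.15%, 2.51% and 3.96%, from 4.95% with all arrays. For the average effect of Noggin the number of solute carrier calls was 14 and 10 without Noggin+DMSO replicates 1 and 3, 15 and 10 without Noggin+RA replicates 1 and 3, 13 without either of Tris+RA replicates 2 and 3, and 16 without Tris+DMSO replicate 1. Over all probe sets the shares were, in that order, 7.24%, 5.2%, 8%, 5.05%, 6.52%, 6.29% and 6.94%, against 11.2% with all arrays. With the GAPDH 5' to 3' ratio as a covariate, which separates the Noggin from the Tris arrays, limma called 0 of the 181 genes in both comparisons, with 18 and 21 at an unadjusted p below 0.05. It then called 0 of all 21354 probe sets too, with 1492 and 1690 at an unadjusted p below 0.05.

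Of the 27 genes called in the average effect of Noggin, 9 were called whichever array was left out: SLC18A2, SLC25A25, SLC28A3, SLC29A1, SLC34A1, SLC6A19 and SLC8A1, which rose, and SLC41A2 and SLC6A15, which fell. SLC6A19 passed the filter through Noggin arrays alone and so had to be higher there. Without it 8 such genes and 26 called genes remain. The 26 include SLC6A5, which exceeded the array median on 2 Tris and 6 Noggin arrays and so passed mainly through Noggin arrays. For 5 of the 8 genes, SLC18A2, SLC25A25, SLC28A3, SLC8A1 and SLC41A2, the GAPDH covariate was the sole alternative tried that ended the call.

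SLC18A2 encodes the transporter that loads monoamines such as dopamine and serotonin into vesicles. Its intensities were 35.2, 39.7 and 28.5 in Tris+DMSO, 58.1, 75.03 and 102 in Noggin+DMSO, 49.7, 41.6 and 53.96 in Tris+RA and 57.8, 57.5 and 62.0 in Noggin+RA. All 6 Noggin arrays were above all 6 Tris arrays, and the highest of all was Noggin+DMSO replicate 3. Tris+DMSO replicate 3, at 28.5, lay below the background of its array, 38.3, so the size of the rise is uncertain. On the scale of intensity + 16 the rise was 1.84-fold in Noggin+DMSO against Tris+DMSO (log2 change 0.88, SE 0.16, adjusted p = 0.0133) and 0.55 in log2 on average (SE 0.11, adjusted p = 0.0148). It was also called in the first comparison without any single array, with adjusted p up to 0.0439.

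SLC25A25 encodes a mitochondrial carrier that exchanges ATP-magnesium for phosphate under the control of calcium. It read 77.0, 109 and 126 in Tris+DMSO, 142, 157 and 168 in Noggin+DMSO, 90.0, 70.4 and 83.1 in Tris+RA and 155, 127 and 139 in Noggin+RA. The 6 Noggin arrays lay above the 6 Tris arrays, by a narrow margin between Noggin+RA replicate 2 and Tris+DMSO replicate 3. The average log2 change was 0.61 (SE 0.11, adjusted p = 0.0088), and in Noggin+DMSO against Tris+DMSO it was 0.53 with an adjusted p of 0.0681. Its second kept probe set went the same way, by 0.18, and was not called.

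SLC28A3, a sodium-coupled carrier that concentrates nucleosides in cells, read 70.2, 71.1 and 64.9 in Tris+DMSO, 125, 93.0 and 86.2 in Noggin+DMSO, 72.0, 58.0 and 69.2 in Tris+RA and 110, 111 and 91.5 in Noggin+RA. Both Noggin groups lay above both Tris groups without overlap, with the lowest Noggin array at 86.2 and the highest Tris array at 72.0. The average log2 change was 0.50 (SE 0.10, adjusted p = 0.0116).

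SLC8A1, the sodium-calcium exchanger known from heart muscle, read 94.1, 80.6 and 86.3 in Tris+DMSO, 180, 149 and 144 in Noggin+DMSO, 110, 64.7 and 95.9 in Tris+RA and 160, 103 and 148 in Noggin+RA. The Noggin+DMSO arrays stood clear of the control, and Noggin+RA replicate 2 fell within the range of the Tris+RA arrays. The log2 change was 0.75 against Tris+DMSO (SE 0.18, adjusted p = 0.0402) and 0.64 on average (SE 0.13, adjusted p = 0.0144). The other kept sodium-calcium exchanger, SLC8A3, rose by 0.36 on average (adjusted p = 0.0423). The list of 9 kept skeletal muscle genes had a median log2 change of 0.239 in the same comparison, with 2 genes higher and 1 lower, and a summed intensity of 890 to 1121 in Tris+DMSO and 1149 to 1284 in Noggin+DMSO; its part in these results was not tested.

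SLC41A2, a magnesium transporter, went the other way. It read 181, 270 and 240 in Tris+DMSO, 158, 159 and 148 in Noggin+DMSO, 214, 288 and 265 in Tris+RA and 191, 167 and 196 in Noggin+RA. Noggin arrays were the lower ones within each state of the RA bead, though Tris+DMSO replicate 1 lay within the range of Noggin+RA. It fell by 0.47 in log2 on average (SE 0.11, adjusted p = 0.0213), and the adjusted p reached 0.0499 without Noggin+DMSO replicate 3. It was the sole called gene among 19 metal ion carriers, and its relatives SLC41A1 and SLC41A3 changed by 0.03 and 0.05.

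**Figure D1:**
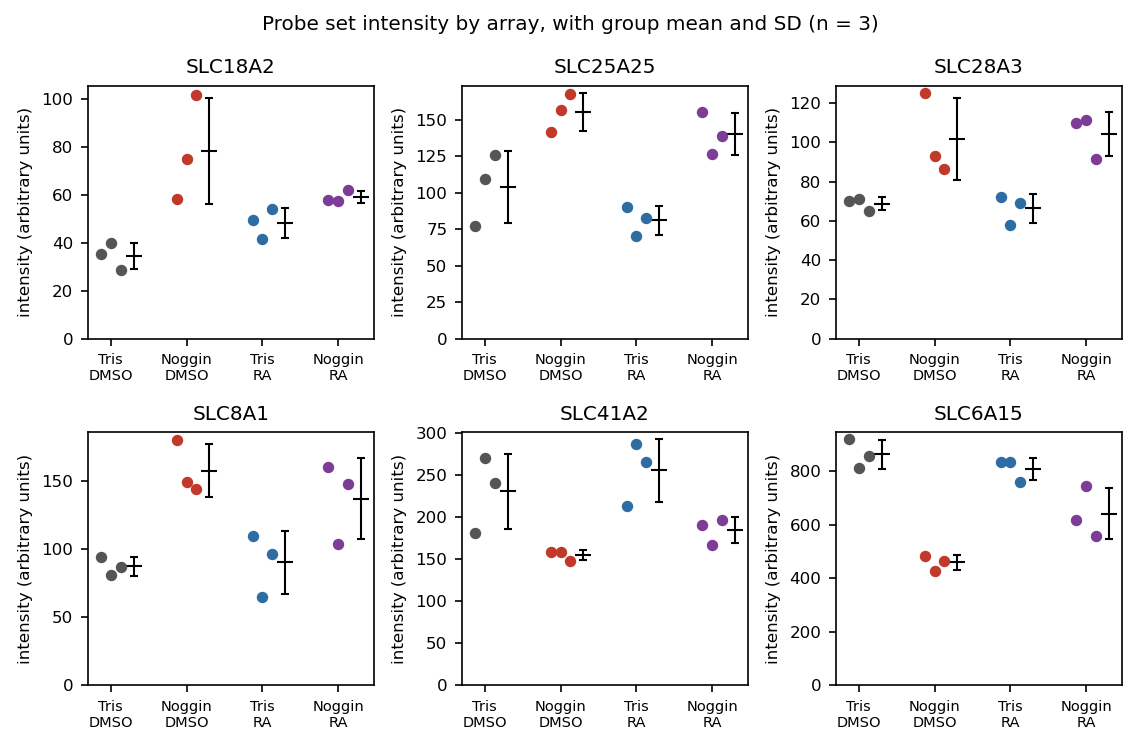
Intensity in arbitrary units (vertical axes from 0) on each of the 12 arrays in the 4 bead groups for 6 genes called in the average effect of Noggin; points are arrays, and the bar beside them is the group mean with its SD (n = 3). SLC18A2, SLC25A25, SLC28A3 and SLC8A1 sit higher with Noggin and SLC41A2 and SLC6A15 lower, and Noggin+DMSO arrays of SLC6A15 range from 428 to 483 against 812 to 921 in Tris+DMSO.

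Amino acid and peptide carriers were the largest class, with 36 genes, of which 5 rose, 3 fell and 28 were not called in the average effect of Noggin. The class held the smallest adjusted p of all solute carrier genes, that of SLC6A15. This gene read 921, 812 and 858 in Tris+DMSO, 483, 428 and 466 in Noggin+DMSO, 833, 834 and 762 in Tris+RA and 619, 746 and 559 in Noggin+RA. All 6 Noggin arrays were below all 6 Tris arrays, and the Noggin+RA arrays lay between the other Noggin group and the Tris groups. It was 1.85-fold lower in Noggin+DMSO than in Tris+DMSO (log2 change -0.89, SE 0.12, adjusted p = 0.00326), and the average log2 change was -0.61 (adjusted p = 0.00231). The difference between the Noggin effects with and without RA was 0.55 and did not pass the interaction test (adjusted p = 0.685). Its 3 other kept probe sets, all dimmer, did not move together: in Noggin+DMSO they changed by -0.53 (adjusted p = 0.0348), 0.16 and 0.18, and the mean over its probe sets was not called. The 7 kept neuron markers had a median log2 change of -0.30 in the average effect of Noggin with 0 called. Their summed intensity was 1493 to 5784 in Tris+DMSO and 1657 to 3403 in Noggin+DMSO. In the same average the called carriers SLC18A2 (monoamines), SLC6A5 (inhibitory neurons) and SLC12A5 (neurons) rose, by 0.55, 0.59 and 0.37. The part of neurons in the changes of SLC6A15 and of these genes was not tested.

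SLC6A12, of the same family as SLC6A15, showed the reverse change. Its values were 130, 118 and 110 in Tris+DMSO, 261, 198 and 469 in Noggin+DMSO, 144, 155 and 170 in Tris+RA and 303, 159 and 168 in Noggin+RA. Each Noggin+DMSO array exceeded every Tris array, replicate 3 by far the most, while Noggin+RA overlapped Tris+RA. The rise was 2.28-fold (log2 change 1.19, SE 0.28, adjusted p = 0.0347) and was not called without Noggin+DMSO replicate 1 or 3 or any one Tris+DMSO array, with adjusted p up to 0.106. All 4 of its other kept probe sets were higher in Noggin+DMSO, and 2 of them were called, at 0.84 and 0.69.

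The remaining amino acid carriers called in the average effect of Noggin had smaller changes. SLC6A19, the neutral amino acid carrier of kidney and gut in mammals, read 20.1 to 35.3 on the 6 Tris arrays and 36.1 to 52.1 on the 6 Noggin arrays and did not overlap. It exceeded the array median, and the background, on 0 Tris arrays and 3 Noggin arrays, so the filter kept it through the side where it is high, and its call (adjusted p = 0.0205) is given as a description. With Tris values below background raised to it, SLC6A19 was at least 1.155-fold higher with Noggin. SLC6A5, the glycine transporter of inhibitory neurons, read 52.9 to 75.4 with Noggin and 23.8 to 72.6 with Tris and rose by 0.59 (adjusted p = 0.0315). It exceeded the array median, and the background, on 6 Noggin and 2 Tris arrays. SLC6A5 thus passed the filter mainly through Noggin arrays, and the size of its change is uncertain. SLC7A7, which exchanges cationic for neutral amino acids, rose in both comparisons, by 0.54 (adjusted p = 0.0350) and 0.39 (adjusted p = 0.0221). SLC7A13 rose by 0.31 (adjusted p = 0.0432). SLC36A1, a proton-coupled amino acid carrier of lysosomes, fell by 0.56 (adjusted p = 0.0391), while 2 of its 3 other kept probe sets had changes above 0, at 0.40 and 0.53, and were not called. SLC38A1, a glutamine carrier, fell by 0.23 (adjusted p = 0.0493), from 1729 to 2120 on the Tris arrays to 1554 to 1758 on the Noggin arrays. Its other kept probe sets changed by -0.18, 0.29, -0.03, -0.27 and 0.02, and none was called. The SLC38A1 call was lost with probe sets averaged by gene and under 11 of 12 single omitted arrays. Among the 11 kept SLC7 genes 2 rose and 9 were not called, ranging from -0.05 for SLC7A5 to 0.52 for SLC7A4, and among 7 SLC38 genes the 6 not called ranged from -0.30 for SLC38A2 to 0.32 for SLC38A9.

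Of 7 nucleoside and nucleotide sugar carriers 3 rose, 0 fell and 4 were not called in the average effect of Noggin, with a class median of 0.34. Besides SLC28A3 these were 2 of the 3 kept members of the SLC29 family. SLC29A1, an equilibrative nucleoside transporter, read 112, 146 and 116 in Tris+DMSO, 186, 206 and 205 in Noggin+DMSO, 152, 148 and 135 in Tris+RA and 170, 149 and 185 in Noggin+RA. Noggin+DMSO lay above every other group, by a narrow margin over Noggin+RA replicate 3, and Noggin+RA replicate 2 lay within Tris+RA. SLC29A1 rose by 0.61 against Tris+DMSO (adjusted p = 0.0179) and 0.40 on average (adjusted p = 0.0170), and SLC29A4, which also carries monoamines, by 0.34 on average (adjusted p = 0.0356). The other kept probe set of SLC29A4 changed by -0.04 and was not called. The SLC29A4 call was lost with probe sets averaged by gene and under 8 of 12 single omitted arrays. SLC29A3 changed by 0.19 and was not called. The first of the SLC29A1 calls was lost without Noggin+DMSO replicate 2 or 3 or Tris+DMSO replicate 1, with adjusted p up to 0.0727.

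Among 14 cation-chloride, calcium and phosphate carriers 4 rose and 0 fell in the average effect of Noggin, with a class median of 0.28. These were SLC8A1 and SLC8A3, SLC34A1 and SLC12A5. SLC34A1, the sodium-phosphate cotransporter of kidney in mammals, read 36.6, 36.3 and 51.98 in Tris+DMSO, 77.3, 58.4 and 78.5 in Noggin+DMSO, 16.6, 35.4 and 42.8 in Tris+RA and 76.3, 67.1 and 50.9 in Noggin+RA. Noggin+DMSO did not overlap its control, whereas Noggin+RA replicate 3 lay just below Tris+DMSO replicate 3. The average log2 change was 0.70 (SE 0.15, adjusted p = 0.0182); its other kept probe set changed by -0.22 and was not called. SLC12A5, the potassium-chloride exporter of neurons, rose by 0.37 (adjusted p = 0.0467). SLC12A9, of the same family, was called in Noggin+DMSO alone, at 0.97 (adjusted p = 0.0335), with 46.2 to 95.5 in the control and 128 to 202 with Noggin.

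Carriers of bicarbonate, protons and sodium counted 12 genes, of which 3 rose and 0 fell. SLC26A9, a chloride carrier, gave the tightest groups of the called genes, 270 to 278 in Tris+DMSO, 343 to 360 in Noggin+DMSO, 285 to 301 in Tris+RA and 319 to 354 in Noggin+RA. It rose by 0.25 on average (adjusted p = 0.0299), and both of its other kept probe sets were called too, at 0.63 and 0.59. SLC26A11 rose by 0.37 (adjusted p = 0.0360). SLC9A7, a sodium-proton exchanger of the Golgi, rose by 0.76 against Tris+DMSO (adjusted p = 0.0229) and by 0.40 on average (adjusted p = 0.0413).

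Of 31 mitochondrial carriers 2 rose, 1 fell and 28 were not called in the average effect of Noggin, and the class median was 0.03. SLC25A24, a relative of SLC25A25 that also exchanges ATP-magnesium for phosphate, fell by 0.26 (adjusted p = 0.0473), from 866 to 1029 with Tris to 716 to 866 with Noggin, so these carriers of the same exchange went in opposite directions. The SLC25A24 call held under 2 of 12 single omitted arrays. It was lost with quantile normalization, without the filter and with the replicate block. SLC25A48 rose by 0.65 in Noggin+DMSO (adjusted p = 0.0311) and 0.43 on average (adjusted p = 0.0265). SLC25A38, which brings glycine into mitochondria for haem synthesis, was called in Noggin+DMSO against Tris+DMSO at 0.66 (adjusted p = 0.0390), with 96.1 to 103 in the control and 127 to 199 with Noggin.

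In the other classes called genes were few. SLC2A12, a facilitative glucose transporter, rose by 0.79 in Noggin+DMSO (adjusted p = 0.0235) and 0.51 on average (adjusted p = 0.0236), and its other kept probe set was called in the average at 0.37. SLC37A1, a sugar-phosphate exchanger of the endoplasmic reticulum, was called in Noggin+DMSO at 0.83 (adjusted p = 0.0426). These were the called genes among 21 sugar and polyol carriers, and the 8 other kept members of the SLC2 family ranged from -0.24 for SLC2A13 to 0.41 for SLC2A9 in Noggin+DMSO. SLC23A1, a vitamin C transporter, rose by 0.40 on average (adjusted p = 0.0287), SLC44A5, of the choline transporter-like family, by 0.32 (adjusted p = 0.0418), and SLC13A1, a sodium-sulfate cotransporter, by 0.48 (adjusted p = 0.0425). SLC43A3, which belongs to an amino acid family but carries purine bases, rose by 0.89 in Noggin+DMSO (adjusted p = 0.0410).

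Outside the genes called whichever array was left out, the calls were close to the threshold. On average over both RA states, 18 genes kept the call under 1 to 10 of the 12 omissions; their highest adjusted p, between 0.0540 and 0.105, came without Noggin+DMSO replicate 3 for 11 genes, without Noggin+RA replicate 3 for 6 and without Tris+RA replicate 2 for 1. In Noggin+DMSO against Tris+DMSO, 11 genes kept it under 3 to 9 omissions, and the highest adjusted p, between 0.0727 and 0.154, came without Noggin+DMSO replicate 3 for 8 of them and without Noggin+DMSO replicate 1, Noggin+DMSO replicate 2 or Tris+DMSO replicate 1 for 1 each.

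**Figure D2:**
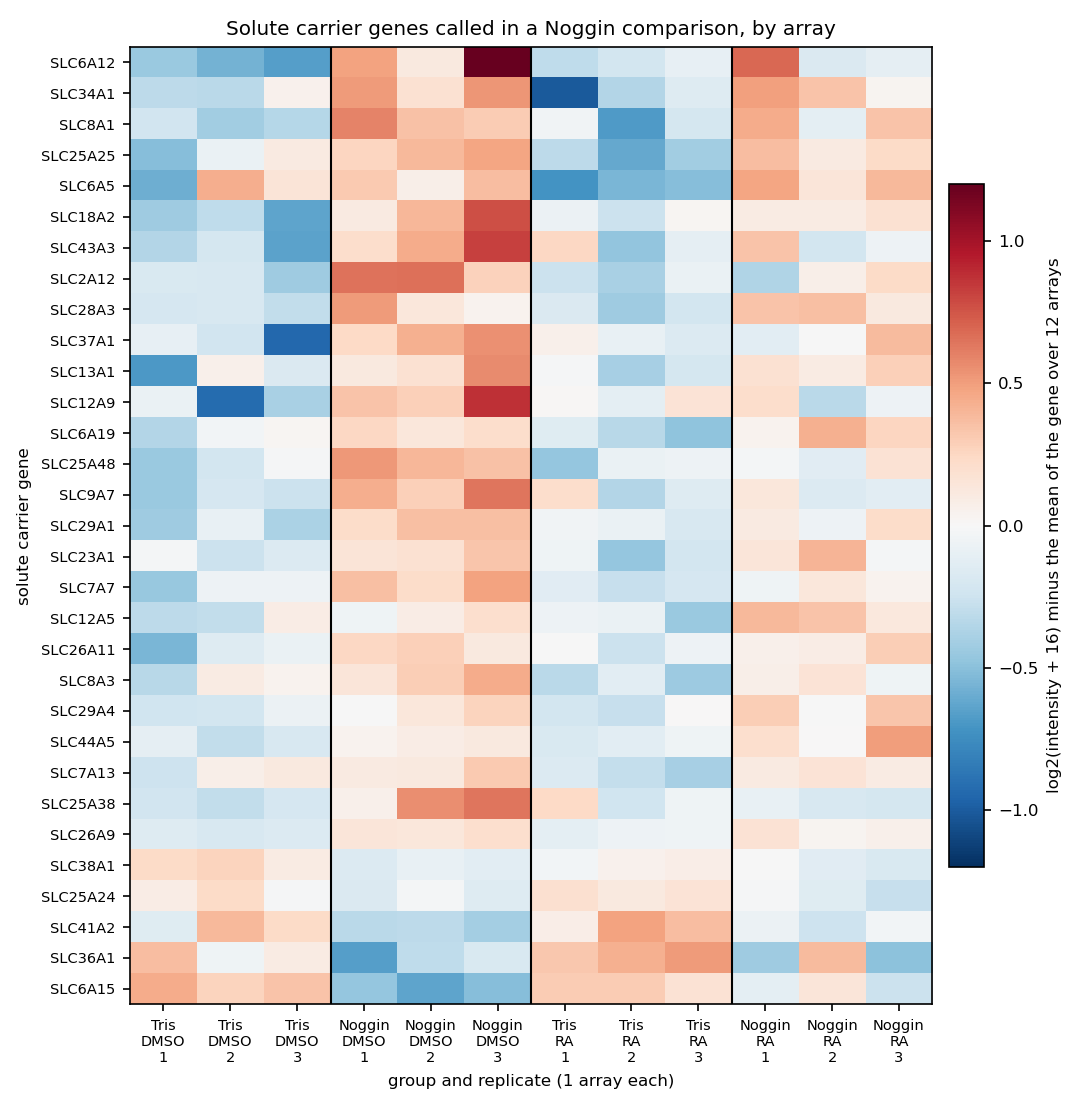
Heat map of the 31 solute carrier genes called in a Noggin comparison (rows, ordered by their average Noggin effect) on the 12 arrays (columns, by group and replicate); colour is log2(intensity + 16) minus the mean of the gene over the 12 arrays. The 26 genes that rose are mostly redder in the Noggin groups, Noggin+DMSO above all, and the 5 that fell, at the bottom, are mostly bluer there.

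**Figure D3:**
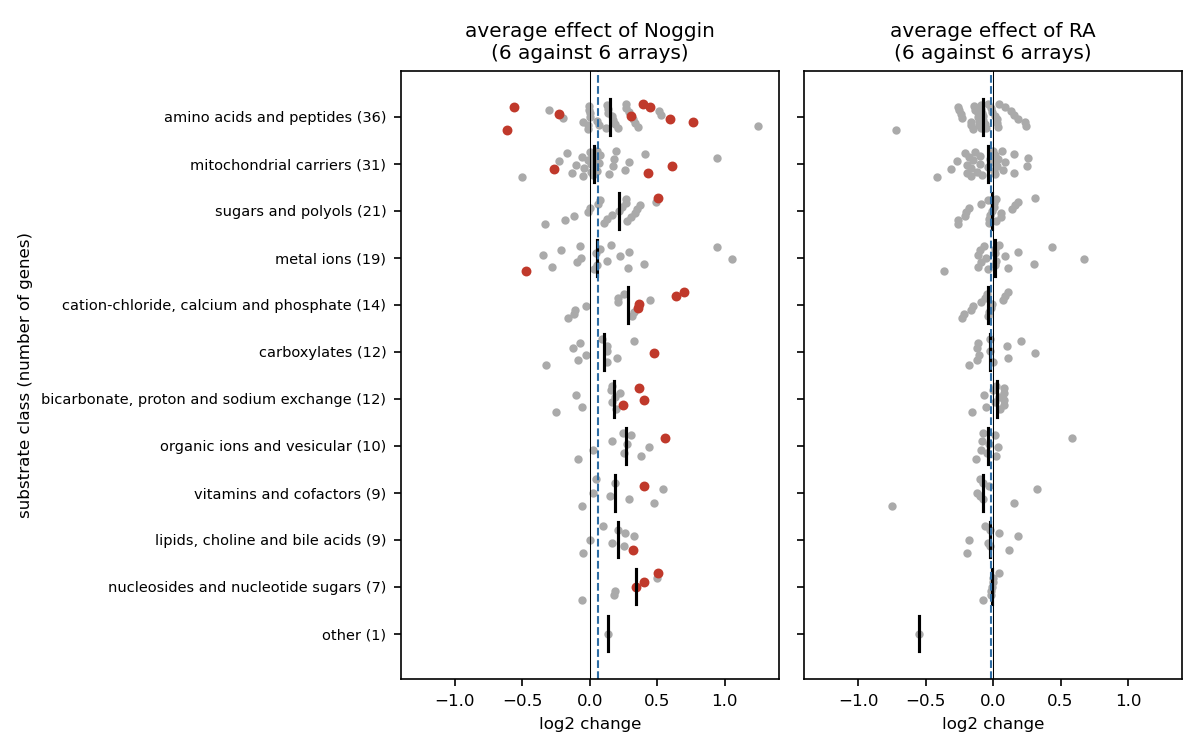
Log2 change of each of the 181 genes (points) by substrate class, with the number of genes in parentheses, for the average effect of Noggin (left) and of RA (right), each 6 against 6 arrays; red points were called, black bars are class medians and the dashed line is the median of all 21354 probe sets. Class medians for Noggin run from 0.03 in mitochondrial carriers to 0.34 in nucleoside carriers, and the RA panel holds 0 called genes.

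The 4 largest log2 changes in Noggin+DMSO were not called and belonged to carriers of iron, zinc, manganese and glycine. SLC25A37, or mitoferrin, which brings iron into the mitochondria of red cell precursors, read 661, 1001 and 436 in Tris+DMSO, 1612, 2224 and 2564 in Noggin+DMSO, 1807, 616 and 855 in Tris+RA and 2250, 792 and 910 in Noggin+RA. Its highest arrays were the 3 of Noggin+DMSO with replicate 1 of Tris+RA and of Noggin+RA, so the RA groups were split by a single array each. The log2 change was 1.64 with an SE of 0.45 (adjusted p = 0.0585). SLC39A8, a carrier of zinc, manganese and iron into cells, read 186, 138 and 98.2 in Tris+DMSO, 385, 528 and 625 in Noggin+DMSO, 465, 83.9 and 136 in Tris+RA and 408, 153 and 191 in Noggin+RA, a log2 change of 1.77 (SE 0.50, adjusted p = 0.0633). Its 5 highest arrays were the same ones.

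SLC30A10, a manganese exporter, read 113, 147 and 38.4 in Tris+DMSO, 284, 353 and 363 in Noggin+DMSO, 306, 84.9 and 172 in Tris+RA and 352, 101.4 and 175 in Noggin+RA, with a log2 change of 1.73 (adjusted p = 0.0647). SLC6A9, a glycine transporter that red cell precursors also use, read 94.0, 152 and 92.0 in Tris+DMSO, 313, 371 and 485 in Noggin+DMSO, 240, 35.2 and 65.8 in Tris+RA and 335, 85.7 and 151 in Noggin+RA, with a log2 change of 1.67 (adjusted p = 0.0891). Averaged over both RA states the changes were 1.25 for SLC6A9, 1.05 for SLC39A8, 0.95 for SLC25A37 and 0.94 for SLC30A10, and none of these was called (adjusted p from 0.0546 to 0.1001).

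The same 5 arrays were the highest for 10 of the 181 genes, or 5.52%, against 252 of all 21354 probe sets, or 1.18%. The 10 genes were SLC22A16, SLC25A37, SLC25A46, SLC30A1, SLC30A10, SLC33A1, SLC39A8, SLC43A3, SLC6A9 and SLC9A7, of which SLC43A3 and SLC9A7 were called. These were also the 5 arrays with the highest mean of the red blood cell list, and SLC4A1 had the same upper arrays, at 479 to 1150 against 55.2 to 243 on the other 7. Of the 10 kept red cell genes, 5 had them (HBAD, EPB42, SPTB, HEMGN and ANK1), and HBA1, HBE, HBZ, EPB41 and TAL1 did not. The summed intensity of the list was 14110 to 25500 in Tris+DMSO, 25280 to 29570 in Noggin+DMSO, 19880 to 26870 in Tris+RA and 24410 to 26690 in Noggin+RA; 3 of its genes were higher in the average effect of Noggin, and RHAG was below background on all 12 arrays. The pattern was noticed in these values and is a description with no test, and the part of red cells in the changes of the 10 genes was not tested.

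**Figure D4:**
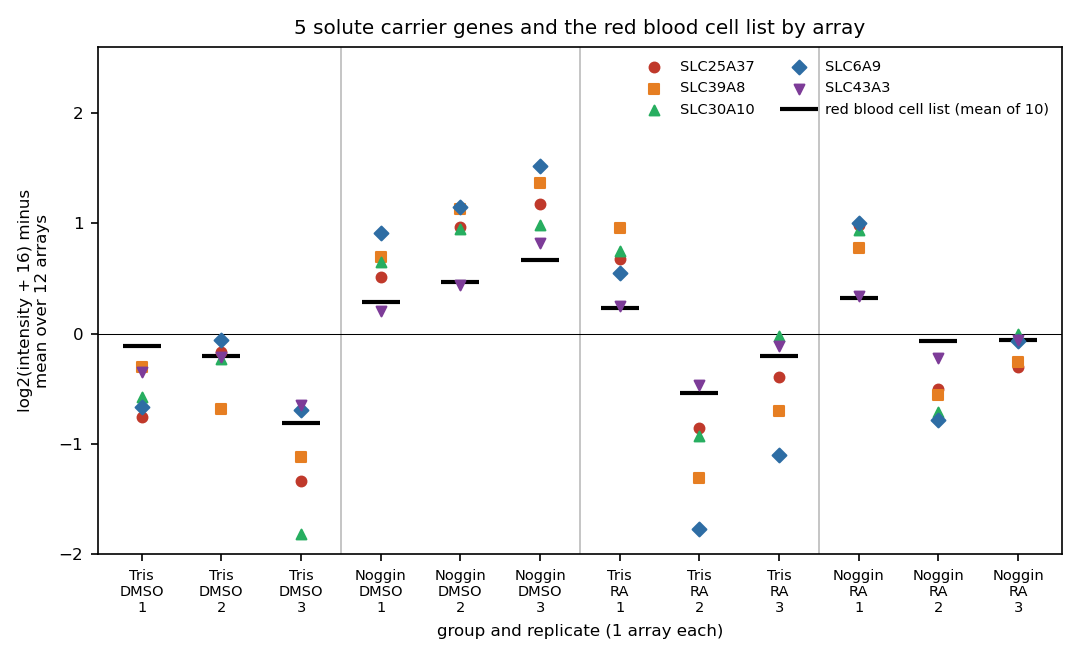
Log2(intensity + 16) minus the mean over 12 arrays (vertical axis) for SLC25A37, SLC39A8, SLC30A10, SLC6A9 and SLC43A3 (symbols) and the mean of 10 red blood cell genes (black bars) on each array, by group and replicate. The 3 Noggin+DMSO arrays and replicate 1 of Tris+RA and of Noggin+RA are above 0 for all 5 genes and for the list, which is at 0.23 or more there and at -0.05 or less on the other 7 arrays.

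The change with Noggin followed the brightness of the probe sets, among solute carriers as among all. With all probe sets divided into quartiles by mean intensity, the median log2 change in the average effect of Noggin was 0.148, 0.131, 0.0237 and -0.0537 from the dimmest to the brightest quartile. For the solute carrier genes it was 0.222 (36 genes), 0.219 (44), 0.189 (59) and 0.0210 (42), above all probe sets in each quartile. The share called was 11.1%, 22.7%, 16.9% and 7.14%, against 8.503%, 11.3%, 13.2% and 11.9% of all probe sets. The 4 called genes of the dimmest quartile include SLC6A19, which passed the filter through Noggin arrays alone, so the first share is raised by the filter. In the brightest quartile 0 genes rose and 3 fell (SLC6A15, SLC25A24 and SLC38A1), so that the rises came from probe sets with mean intensity below 348.

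**Figure D5:**
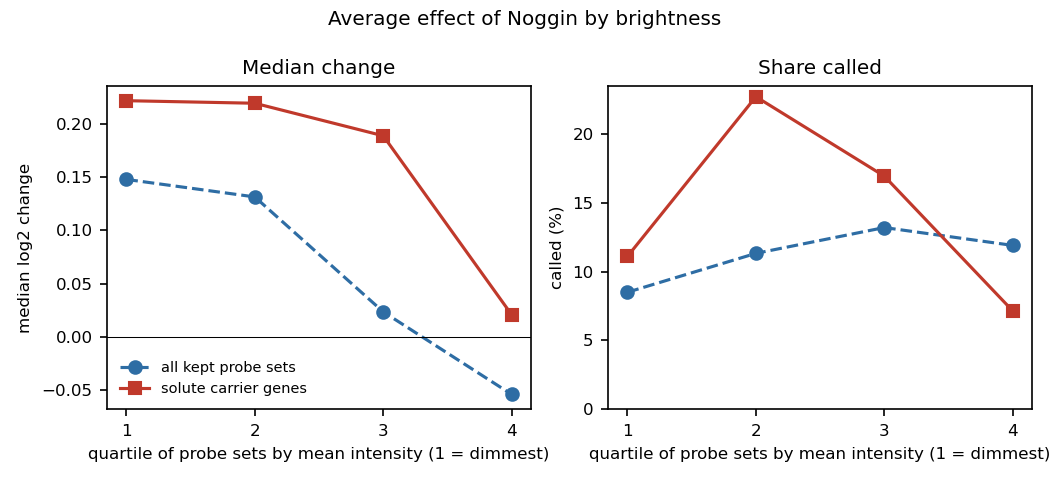
Median log2 change (left) and percent called (right) in the average effect of Noggin for all kept probe sets (blue circles, dashed) and for the 181 solute carrier genes (red squares), by quartile of mean intensity from dimmest (1) to brightest (4). Both medians fall toward the brightest quartile, where solute carrier genes are at 0.0210 and all probe sets at -0.0537. The called genes of the dimmest quartile include SLC6A19, which passed the filter through Noggin arrays alone.

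The second question was what RA changed. In Tris+RA against Tris+DMSO limma called 0 solute carrier genes, as 0.0% of all probe sets were called, and 16 genes had an unadjusted p below 0.05, which is 8.84% against 6.41% of all probe sets. In the average effect of RA, where 0.82% of all probe sets were called, 0 of the 181 genes were called and 16 had an unadjusted p below 0.05, which is 8.84% against 9.63%. The median log2 change over the genes was 0.0115 and -0.0314 in these comparisons.

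SLC18A3, which loads acetylcholine into vesicles of cholinergic neurons and lies close to the threshold, read 22.3, 40.1 and 35.2 in Tris+DMSO, 40.2, 54.3 and 45.7 in Noggin+DMSO, 66.4, 80.2 and 57.9 in Tris+RA and 49.3, 68.9 and 78.4 in Noggin+RA. It exceeded the array median, and the background, on all 6 RA arrays and on 2 of the 6 DMSO arrays. SLC18A3 thus passed the filter mainly through RA arrays, the side where it is high. With Tris+DMSO values below background raised to it, Tris+RA was at least 1.60-fold above Tris+DMSO. The average log2 change with RA was 0.59 (SE 0.13, adjusted p = 0.0639), and the gene was called under quantile normalization, median centring and the mean over probe sets. Because of the filter, these calls are given as a description. The 7 kept neuron genes had a median log2 change of 0.505 in the average effect of RA with 0 called. Their summed intensity was 1493 to 5784 in Tris+DMSO, 1657 to 3403 in Noggin+DMSO, 4136 to 5433 in Tris+RA and 3236 to 5066 in Noggin+RA. In Tris+RA against Tris+DMSO their median was 0.364, while SLC6A5, of inhibitory neurons, changed by -0.59 and was not called. The part of neurons in the level of SLC18A3 was not tested.

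SLC14A2, a urea transporter of kidney in mammals and the sole member outside the named substrate classes, had lower values with RA. It read 56.4, 52.1 and 64.9 in Tris+DMSO, 71.9, 64.5 and 79.9 in Noggin+DMSO, 39.9, 54.7 and 25.7 in Tris+RA and 41.9, 41.01 and 35.05 in Noggin+RA. The RA arrays were below the DMSO arrays except for Tris+RA replicate 2. The average log2 change was -0.55 (adjusted p = 0.0654), and leaving out Tris+RA replicate 2 brought the gene past the threshold. Other large values with RA did not approach it: the average changes were -0.75 for SLC19A2, a thiamine transporter, -0.72 for SLC6A9 and 0.67 for SLC30A2, a zinc transporter (adjusted p from 0.318 to 0.596). SLC30A2 passed the filter through 3 RA arrays alone and was above background on 0 DMSO arrays, so the size of its change is not measured. With DMSO values below background raised to it, the lower limit for the average effect of RA was 0.802-fold, which does not establish a rise. With the Tris+DMSO values raised to background, the lower limit for Tris+RA was 1.005-fold. In Tris+RA against Tris+DMSO the largest were 0.90 for SLC16A12, 0.81 for SLC30A10, 0.80 for SLC18A3, 0.75 for SLC30A2, with the limit just given, and -0.59 for SLC6A5, with adjusted p of 0.274 and above.

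With both factors, Noggin+RA against Tris+DMSO, 0.81% of all probe sets and 0 of the 181 genes were called; 33 genes had an unadjusted p below 0.05, which is 18.2% against 14.7% of all probe sets. The median log2 change was 0.127 against 0.0381. The largest changes were 0.95 for SLC30A10, 0.87 for SLC52A3, a riboflavin transporter, 0.81 for SLC25A37, 0.75 for SLC18A3 and 0.69 for SLC6A12, with adjusted p from 0.0838 for SLC18A3 to 0.430. The control arrays are shared with the other comparisons. Side by side, SLC18A2 changed by 0.88 in Noggin+DMSO and 0.58 in Noggin+RA, SLC6A15 by -0.89 and -0.43, SLC6A12 by 1.19 and 0.69, SLC2A12 by 0.79 and 0.25, SLC9A7 by 0.76 and 0.25 and SLC28A3 by 0.46 and 0.50. All of these but SLC28A3 were called in Noggin+DMSO, so large values there are expected from the choice. SLC12A5, called in the average effect of Noggin alone, changed by 0.25 and 0.46.

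The third question, whether the Noggin effect differed with RA present, was answered by the interaction of both factors. Limma called 0 of the 181 genes and 0.0% of all probe sets, and 21 genes had an unadjusted p below 0.05, or 11.6% against 5.97% of all probe sets. The median interaction was -0.0785 over the genes and -0.00176 over all probe sets. The largest values were -1.59 for SLC30A10, -1.43 for SLC39A8, -1.39 for SLC25A37, -1.19 for SLC16A12 and 1.09 for SLC34A2, a sodium-phosphate cotransporter near background, with adjusted p of 0.552 and above. The first 3 are among the 10 genes whose highest arrays were those of the red blood cell list.

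Other membrane transporters gave a setting for these counts. The list of 88 kept genes held ATP-binding cassette transporters, ion pumps, aquaporins, chloride channels and organic anion and nucleotide sugar carriers. In the average effect of Noggin 11 rose and 0 fell, or 12.5%, against 11.2% of all probe sets and 12.29% of all genes. In Noggin+DMSO against Tris+DMSO 4 rose and 1 fell, or 5.68%, against 4.95% of all probe sets and 5.69% of all genes. Both shares of the list were thus close to those of all genes. The 11 include ABCB5, which exceeded the array median on 0 Tris and 3 Noggin arrays. The filter kept it through the side where it is high, so its call is a description. The median log2 changes of the 88 genes were 0.116 and 0.144 in these comparisons. The smallest adjusted p among them was that of ABCC8, a subunit of ATP-sensitive potassium channels, which read 31.04 ± 5.10 in Tris+DMSO and 82.0 ± 5.62 in Noggin+DMSO (SD, n = 3). It was above background on 1 of 6 Tris arrays and was at least 1.502-fold higher with Noggin on average (adjusted p = 0.00184 from limma). It exceeded the array median on 1 Tris and 5 Noggin arrays, so it too passed the filter mainly through Noggin arrays.

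Different probe sets of a gene did not always move together. Of the 31 called genes, those called in the average effect of Noggin had 26 other kept probe sets in 13 genes, of which 18 had the same sign and 5 were also called with it. In Noggin+DMSO against Tris+DMSO there were 12 in 6 genes, 10 with the same sign and 4 also called. Among the 67 genes left out by the filter, a fit without the filter called SLC6A6 in Noggin+DMSO and SLC22A4, SLC4A4, SLC6A4, SLC6A6 and SLC9A9 in the average effect of Noggin. These were 1 and 5 of the 133 probe sets of the 67 genes. The same fit called 1.79% and 4.52% of all 37693 probe sets.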

How the data were processed

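The authors deposited 1 linear intensity per probe set and array, scaled to a common trimmed mean (checked on the file with 2% trimmed from each end); the summarization software is not given in the sources used here. Per the labels' protocols, each pool gave 500 ng of total RNA to two-cycle biotin labelling, which copies from the 3' end, so that RNA completeness can affect intensities. Intensities were analysed as log2(value + 16) with limma 3.58.1 (R 4.3.3), with 1 mean per group over all 12 arrays, two-sided tests and Benjamini-Hochberg adjustment over the 21354 chicken probe sets above the array median on at least 3 arrays; an adjusted p below 0.05 is called. The script was tested on simulated data. Lower limits of fold ("at least") raise values below background to it, where the lower group had at most 1 array above background. Of the 181 genes, 180 were found in the RefSeq gene table and 0 changed symbol.

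Named are all called genes, the lowest p of a class without a call, the 5 largest changes of each comparison and kept relatives of called genes. Classes follow the family number. Members and lists were chosen with earlier results of these data known. Arrays are separate pools; their number limits the precision. The alternatives were other added values, normalizations, filters, probe set means, samples, covariates, thresholds and single omitted arrays.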

Additional observations from a re-analysis of the deposited data

Results flagged for a closer look

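SLC16A12, a carrier of monocarboxylates and creatine, was picked out because Noggin moved every array one way with DMSO and the opposite way with RA. It read 89.3, 74.4 and 98.1 in Tris+DMSO, 130, 114 and 148 in Noggin+DMSO, 130, 256 and 162 in Tris+RA and 79.0, 108 and 129 in Noggin+RA. The Noggin effect with RA minus that with DMSO was -1.19 in log2, with an unadjusted p of 0.00266 and an adjusted p of 0.552 from limma, so the difference did not pass its own test.

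SLC7A3, a cationic amino acid transporter, was picked out for the RA effect, which was downward on every array with Tris and upward on every array with Noggin. It read 634, 696 and 684 in Tris+DMSO, 502, 528 and 567 in Tris+RA, 643, 613 and 642 in Noggin+DMSO and 647, 658 and 739 in Noggin+RA. The difference of the RA effects was 0.429 in log2, with an unadjusted p of 0.00972 and an adjusted p of 0.686 from limma, which did not pass either.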

How the results depend on the processing

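Directions of the called genes held under 852 alternative values, of which 503 kept the call, 349 lost it and 0 reversed. Some of the values that kept their sign were almost no change, such as an average log2 change of 0.00187 for SLC6A12. In Noggin+DMSO against Tris+DMSO the 13 calls became 21 with 64 added before log2, 8 with quantile normalization, 5 without the filter, 20 with probe sets averaged by gene, 8 with the fit on those groups alone, 0 with the GAPDH covariate and 27 at an adjusted p below 0.1. Single omitted arrays gave 3 to 16. Of all probe sets, 7.12% were called with 64 added, 5.22% with quantile normalization and 1.79% without the filter. The share was 2.49% with the fit on those groups alone, 0% with the GAPDH covariate and 1.21% to 5.15% under omissions. In the average effect of Noggin the 27 calls became 14 without the filter, 0 with the GAPDH covariate and 52 at 0.1. Omissions gave 10 to 25. The shares of all probe sets were 4.52% without the filter, 0% with the GAPDH covariate and 5.05% to 10.9% under omissions. The average effect of RA had 1 call with quantile normalization, median centring and the replicate block. Of all probe sets, 0.773%, 0.777% and 0.384% were called there. It had 0 to 1 under omissions, against 0.239% to 0.89% of all probe sets, and 2 with probe set means and at 0.1. Noggin+RA against Tris+DMSO had 1 at 0.1. The shares over all features with probe set means and at 0.1 are not given, so every count in those settings stands without a background. Tris+RA and the interaction stayed at 0. The cause of these changes was not tested. By design, an omission leaves fewer arrays, and the fit without the filter tests more probe sets. With replicate number as a block the Noggin calls were 9 and 19, where 3.59% and 9.12% of all probe sets were called. The replicate numbers share no stated origin: deviations of same-numbered arrays correlated at -0.0978 to 0.0695, and 1 of 12 arrays correlated best with its own number. Genes near the background level of 31.1 to 48.97, such as SLC6A19, SLC18A2 and SLC18A3, have the least certain sizes.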
